A study of Homo sapiens with 6 samples.

Results

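The genes described here are 10 angiogenic ligands and receptors in oral squamous cell carcinoma (OSCC) cells: VEGFA, VEGFB, VEGFC, PGF, ADM, ANGPTL4, EDN1, FLT1, NRP1 and NRP2. They were taken by gene symbol from the RNA-seq count table, where 10 of 10 were found among 21776 genes. SCC25, an established human OSCC line labelled wild type, was kept for 12 h in 1% O2 with 5% CO2 and balancing nitrogen (hypoxia, 3 libraries) or for 12 h in air with 5% CO2 (normoxia, 3 libraries). All libraries came from 1 cell line, and no label says whether the replicates were separate cultures, so the p-values measure the spread between these libraries, which may be technical. The libraries held 29637189 to 37278703 counted reads.

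Angiogenic factors secreted by tumor cells act mainly on neighboring endothelial cells. The VEGF ligands bind receptor tyrosine kinases (FLT1, KDR and FLT4), and the neuropilins NRP1 and NRP2 serve as co-receptors for VEGF ligands and, with plexins, as receptors for class 3 semaphorins. In low oxygen the alpha subunits of the hypoxia-inducible factors (HIF) are stabilized, pair with ARNT and bind hypoxia response elements whose core letters are ACGTG or GCGTG, and VEGFA, ADM and ANGPTL4 are textbook targets of this system.

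Of the 10 genes, 9 passed the filter on low counts and were tested, whereas FLT1 did not pass. Under hypoxia 5 of the 9 tested were higher (ANGPTL4, ADM, VEGFA, PGF and VEGFB), 3 were lower (NRP1, EDN1 and VEGFC), and NRP2 did not pass an adjusted p of 0.05 in edgeR's quasi-likelihood test. The background was broad, since 77.8% of the 14255 genes tested were called, 39.2% higher and 38.5% lower, so the number called says little by itself. A log2-fold change over 1 was found for 4 of the 9 (ANGPTL4, ADM, VEGFA and PGF), against 19.9% of all genes tested, and one under -1 for 1 of the 9 (NRP1), against 10.5%. CPM did not overlap between the conditions for 8 of the 9, 5 higher and 3 lower under hypoxia, against 80.5% of all genes tested, 40.6% higher and 39.9% lower. The 9 tested genes had a median log2-fold change of 0.98, against 0.023 over all genes tested. The genes were chosen with earlier results of these data known, so these comparisons with all genes are a description and not a test.

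**Figure D1:**
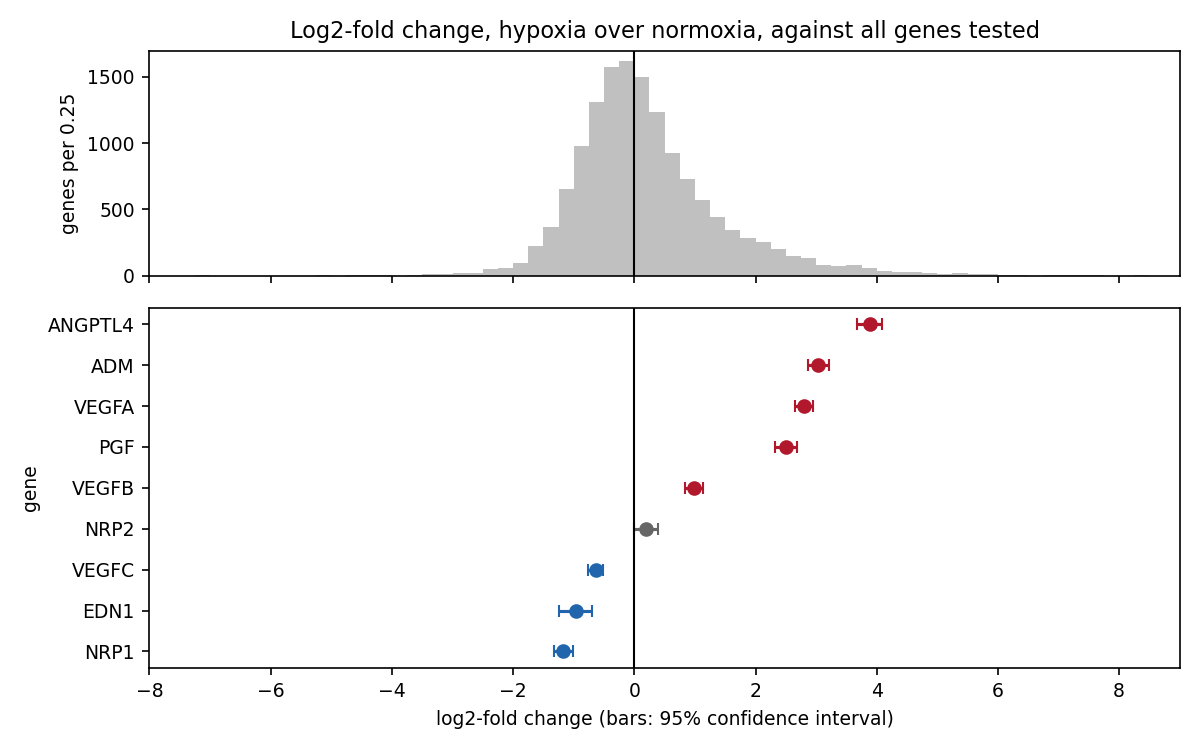
Upper panel, number of genes tested per 0.25 of log2-fold change (hypoxia over normoxia). Lower panel, log2-fold change of the 9 tested genes with 95% confidence intervals, in red where higher, blue where lower and gray where not called. ANGPTL4 lies farthest to the right at 3.89, NRP1 farthest to the left at -1.17, and the interval of NRP2 spans 0.

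Core letters of the hypoxia response element were searched in RefSeq promoter windows (GRCh38.p14), which run from 250 bases before to 50 bases after a gene start, because 5 of the genes were higher together. Of the 10 genes, 8 matched an entry, with 11 windows, and VEGFA and NRP1 had no entry among the promoter windows used. ACGTG or GCGTG on either strand was found in a window of 7 of the 8, and NRP2 had no match. Across all 35116 windows 48.4% held a match, 21.4% ACGTG and 36.5% GCGTG, so these letters are common. This share is per window, whereas the 7 of 8 is per gene, so the 2 are not like for like. PGF had 2 windows and EDN1 had 3, of which the second held no match. Windows of genes called higher held a match in 56.3% of cases and windows of genes called lower in 64.6%. A match is a description of the letters and not a binding site. The stretches are printed 5′ to 3′ on the gene's strand with the match in capitals. CACGT and CACGC are ACGTG and GCGTG on the opposite strand, and no printed stretch held the joined palindrome CACGTG. Those of genes that were higher under hypoxia were as follows.
ANGPTL4, chr19:8363909-8363938, plus strand, 234 bases before the start: ggaaagaagagtCACGTctcccacggttcg
ADM, chr11:10304960-10304989, plus strand, 101 bases before the start: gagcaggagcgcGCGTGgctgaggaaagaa
PGF, chr14:74955742-74955771, minus strand, 162 bases before one start and 6 after another: gagagcccctcgCACGCactgcgggctccg
VEGFB, chr11:64234511-64234540, plus strand, 61 bases before the start: ccggtggggagcGCGTGtctgggtcacatg

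Genes that were lower under hypoxia also held the letters, with 1 match for VEGFC and 4 for EDN1, and the window of FLT1 held a match although FLT1 was near 0.
VEGFC, chr4:176792964-176792993, minus strand, 59 bases before the start: gcccgggctcggCACGCtccctccctcggc
EDN1, chr6:12287769-12287798, plus strand, 240 bases before the first start: cgcgcaggcaCACGTcttgcaaattcagga
EDN1, chr6:12287914-12287943, plus strand, 93 bases before the first start: cggatggctggcCACGTtttgtgtttccaa
EDN1, chr6:12287960-12287989, plus strand, 47 bases before the first start: gacacagacgggGCGTGgtgagtgctgttg
EDN1, chr6:12290226-12290255, plus strand, 123 bases before the third start: tatctccggctgCACGTtgcctgttggtga
FLT1, chr13:28495317-28495346, minus strand, 206 bases before the start: ccagcacctcccCACGCgcgctcggccccg

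Among the VEGF ligands, VEGFA, the main mitogen and permeability factor for endothelium, had 1202, 1317 and 1315 CPM (counts scaled to library size by TMM) in the hypoxia libraries and 180, 168 and 205 in the normoxia libraries. Every hypoxia library lay above every normoxia library. The log2-fold change was 2.80 (95% confidence interval 2.65 to 2.94, adjusted p = 4.25e-15 in edgeR), and 4.23% of all genes tested had a larger one. VEGFA stood at rank 145 of all genes by deposited FPKM (fragments scaled to gene length and library size) under hypoxia and at rank 1338 in normoxia.

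PGF, a ligand of FLT1 that does not bind KDR, had 52.0, 60.8 and 59.0 CPM under hypoxia and 10.0, 9.33 and 11.0 CPM in normoxia. The groups did not overlap, and PGF was 5.66-fold higher (log2-fold change 2.50, SE 0.086, adjusted p = 1.02e-13 in edgeR). VEGFB, also a FLT1 ligand, had 46.0, 44.1 and 47.2 CPM under hypoxia and 23.5, 22.1 and 23.8 CPM in normoxia. The 6 libraries formed 2 tight groups with a 1.98-fold higher level under hypoxia (log2-fold change 0.98, SE 0.068, adjusted p = 5.06e-10 in edgeR).

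VEGFC, the lymphangiogenic ligand of FLT4, moved the other way, with 75.5, 69.7 and 68.3 CPM under hypoxia and 106, 111 and 115 CPM in normoxia. All hypoxia libraries were below all normoxia libraries, and the level was 1.56-fold lower (log2-fold change -0.64, SE 0.058, adjusted p = 1.85e-08 in edgeR). Of all genes tested, 21.3% had a lower log2-fold change than VEGFC.

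**Figure D2:**
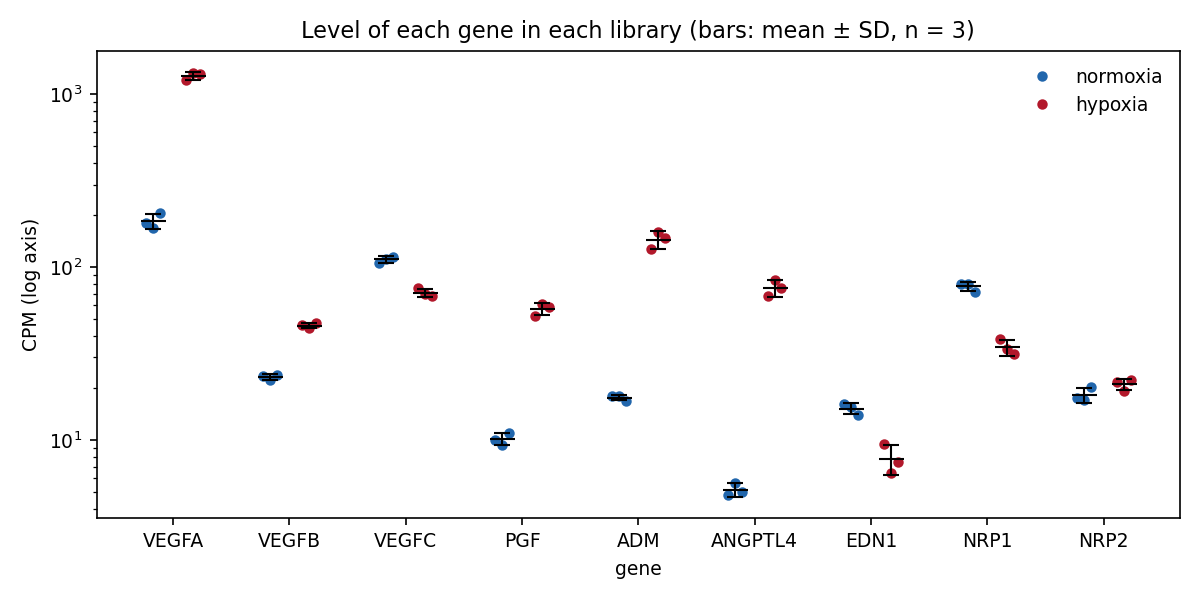
CPM on a log axis for the 9 tested genes, with 1 point per library and bars for the mean and SD of the 3 libraries per condition. Only for NRP2 do the hypoxia and normoxia points overlap, while VEGFC, EDN1 and NRP1 have their normoxia points on top.

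FPKM was used to set the ligands against each other. In normoxia VEGFA and VEGFC had overlapping levels of 47.7 ± 5.26 and 48.2 ± 1.75 FPKM (SD, n = 3), whereas under hypoxia they had 342 ± 19.4 and 32.0 ± 1.71 FPKM (SD, n = 3). The FPKM ratio of VEGFA to VEGFC was therefore 0.990 ± 0.084 in normoxia and 10.7 ± 1.09 under hypoxia (SD, n = 3). The equal level in normoxia rests on the division by length, since the log2 ratio from undivided counts was 0.73 in normoxia and 4.17 under hypoxia, while the difference between conditions, 3.44, is the same on both scales. VEGFA made up 42.1%, 39.9% and 43.6% of the summed FPKM of the 4 VEGF ligands in the normoxia libraries and 78.6%, 79.9% and 79.9% in the hypoxia libraries. The share of VEGFC was 42.4% ± 1.86 in normoxia and 7.46% ± 0.729 under hypoxia (SD, n = 3). VEGFB lost share although its level rose, with 11.1% ± 0.452 in normoxia and 5.99% ± 0.347 under hypoxia. From counts without division by length the normoxia and hypoxia shares were 56.0% and 88.0% for VEGFA and 33.8% and 4.91% for VEGFC. For VEGFB they were 7.06% and 3.16%. The share of PGF was 4.58% ± 0.144 in normoxia and 7.07% ± 0.291 under hypoxia, and from counts without division by length it was 3.09% and 3.94%. No share overlapped between conditions, and an exact two-sided permutation test gave p = 0.1 for each, the smallest value that 3 against 3 libraries allow.

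**Figure D3:**
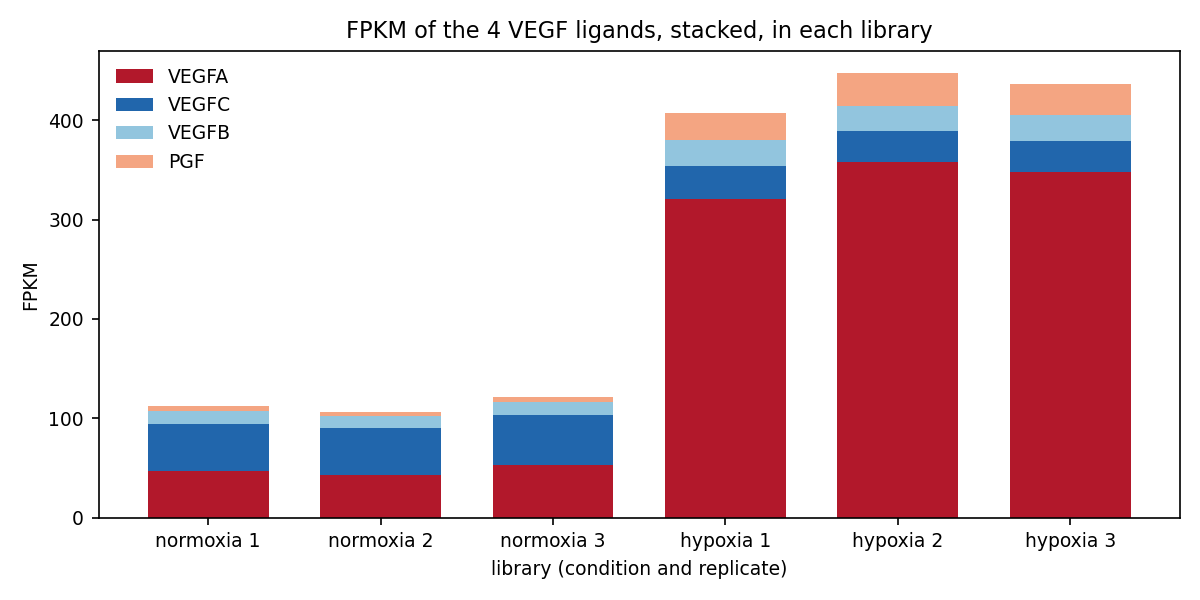
Stacked FPKM of VEGFA, VEGFC, VEGFB and PGF in each library. The summed height was 114 ± 7.68 FPKM in normoxia and 430 ± 20.6 FPKM under hypoxia (SD, n = 3), and the VEGFA segment takes most of every hypoxia bar.

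The 3 secreted factors outside the VEGF family differed widely in their response. ANGPTL4, a secreted inhibitor of lipoprotein lipase that also acts on vessels, had 67.7, 84.3 and 75.5 CPM under hypoxia and 4.81, 5.66 and 4.97 CPM in normoxia. Its groups were far apart, with a 14.8-fold higher level under hypoxia (log2-fold change 3.89, SE 0.097, adjusted p = 4.25e-15 in edgeR), and 1.67% of all genes tested had a larger log2-fold change. ADM, which encodes the vasodilator peptide adrenomedullin, had 126, 159 and 147 CPM under hypoxia and 17.9, 17.9 and 16.8 CPM in normoxia. The normoxia libraries were nearly equal and all lay below the hypoxia libraries, an 8.21-fold difference (log2-fold change 3.04, SE 0.080, adjusted p = 7.79e-15 in edgeR). By FPKM, ADM went from 11.6 ± 0.430 in normoxia to 98.2 ± 12.2 under hypoxia (SD, n = 3), second only to VEGFA among the 10 genes.

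EDN1, the precursor of the vasoconstrictor endothelin-1, had 9.46, 6.43 and 7.49 CPM under hypoxia and 16.2, 15.5 and 13.9 CPM in normoxia. The ranges did not overlap, and EDN1 was 1.96-fold lower under hypoxia (log2-fold change -0.97, SE 0.13, adjusted p = 3.15e-06 in edgeR). It also had the widest relative spread of the 9 tested genes within a condition, 19.8% of the mean under hypoxia. The log2 ratio of ADM to EDN1 by FPKM was 1.04 ± 0.063 in normoxia and 5.05 ± 0.451 under hypoxia (SD, n = 3), so the vasodilator and vasoconstrictor transcripts moved apart. From undivided counts this log2 ratio was 0.21 in normoxia and 4.22 under hypoxia.

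Among the receptors, FLT1, the VEGFA, VEGFB and PGF receptor, had 0, 1 and 1 raw counts in the hypoxia libraries and 1, 1 and 0 in the normoxia libraries. These values lie under a floor of 3 counts, which corresponds to 0.0806 to 0.105 CPM per library, so no fold was computed and FLT1 was not detectable above the floor at this depth. KDR, the main signaling receptor for VEGFA, had 4, 1 and 1 raw counts under hypoxia and 0, 0 and 0 in normoxia and was not tested. FLT4 was not analysed here.

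NRP1, a co-receptor for VEGFA and semaphorin SEMA3A, had 38.3, 33.4 and 31.3 CPM under hypoxia and 79.9, 80.1 and 72.0 CPM in normoxia. The hypoxia libraries were all below the normoxia libraries, a 2.25-fold lower level (log2-fold change -1.17, SE 0.074, adjusted p = 1.55e-10 in edgeR), and 7.26% of all genes tested had a lower log2-fold change. NRP2, which binds VEGFC and SEMA3F, had 21.5, 19.1 and 22.1 CPM under hypoxia and 17.4, 16.9 and 20.3 CPM in normoxia. Its ranges overlapped, because the second hypoxia library lay below the third normoxia library. The log2-fold change of NRP2 was 0.20 (95% confidence interval -0.0026 to 0.40, adjusted p = 0.0664 in edgeR). Without hypoxia replicate 2 it was 0.26 with adjusted p = 0.0366, and without normoxia replicate 3 it was 0.26 with adjusted p = 0.0142 in edgeR, so the call depended on these 2 libraries. It also depended on the filter, since NRP2 passed when at least 10 counts were required in every library, a setting whose scaling moved the median log2-fold change of shared genes by 0.077 and NRP2 from 0.20 to 0.27.

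By FPKM, NRP1 was the more abundant neuropilin in both conditions, but the NRP1 to NRP2 ratio went from 11.6 ± 1.74 in normoxia to 4.45 ± 0.546 under hypoxia (SD, n = 3). These ratios depend on the length used, which the deposited values put at about 16433 bases for NRP2 and 6086 for NRP1. From undivided counts the log2 ratio was 2.09 in normoxia and 0.71 under hypoxia, against 3.52 and 2.15 by FPKM. The summed FPKM of both neuropilins was 13.6 ± 0.651 in normoxia and 7.02 ± 0.599 under hypoxia. Summed VEGF ligand FPKM per neuropilin FPKM was 7.92, 7.79 and 9.47 in the normoxia libraries and 53.0, 65.2 and 66.9 in the hypoxia libraries. No library of one condition reached the range of the other, with an exact two-sided permutation p = 0.1, the smallest possible. The size of this ratio also depends on the lengths used. In CPM, which is not divided by length, the 4 ligands summed to 319, 311 and 354 in normoxia and 1376, 1491 and 1490 under hypoxia. The neuropilins with FLT1 summed to 97.4, 97.1 and 92.2 CPM in normoxia and 59.8, 52.6 and 53.4 CPM under hypoxia.

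The order of levels by FPKM changed between conditions. In normoxia VEGFC and VEGFA stood first and overlapped. They were followed by VEGFB (12.6 ± 0.664), NRP1 (12.5 ± 0.746) and ADM (11.6 ± 0.430), whose neighbors overlapped, then EDN1 (5.63 ± 0.456) and PGF (5.21 ± 0.488), which overlapped too. ANGPTL4 (2.59 ± 0.183) and NRP2 (1.09 ± 0.114) came next, with FLT1 last. Under hypoxia the order was VEGFA, ADM (98.2 ± 12.2), ANGPTL4 (39.4 ± 4.77), VEGFC (32.0 ± 1.71) and PGF (30.5 ± 2.69), VEGFB (25.8 ± 0.541), NRP1 (5.73 ± 0.600), EDN1 (2.99 ± 0.570), NRP2 (1.29 ± 0.080) and FLT1, and only VEGFC and PGF overlapped among neighbors. Values in parentheses are mean FPKM ± SD of 3 libraries.

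The other genes of these pathways were described through lists chosen with earlier results known. Of 79 listed genes 67 were in the count table and 42 were tested, of which 27 (64.3%) were higher, 8 (19.0%) were lower and 7 were not called, with a median log2-fold change of 0.87, against 39.2% higher, 38.5% lower and a median of 0.023 over all genes tested. Of the 67, 15 were at or under 3 counts in every library.

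**Figure D4:**
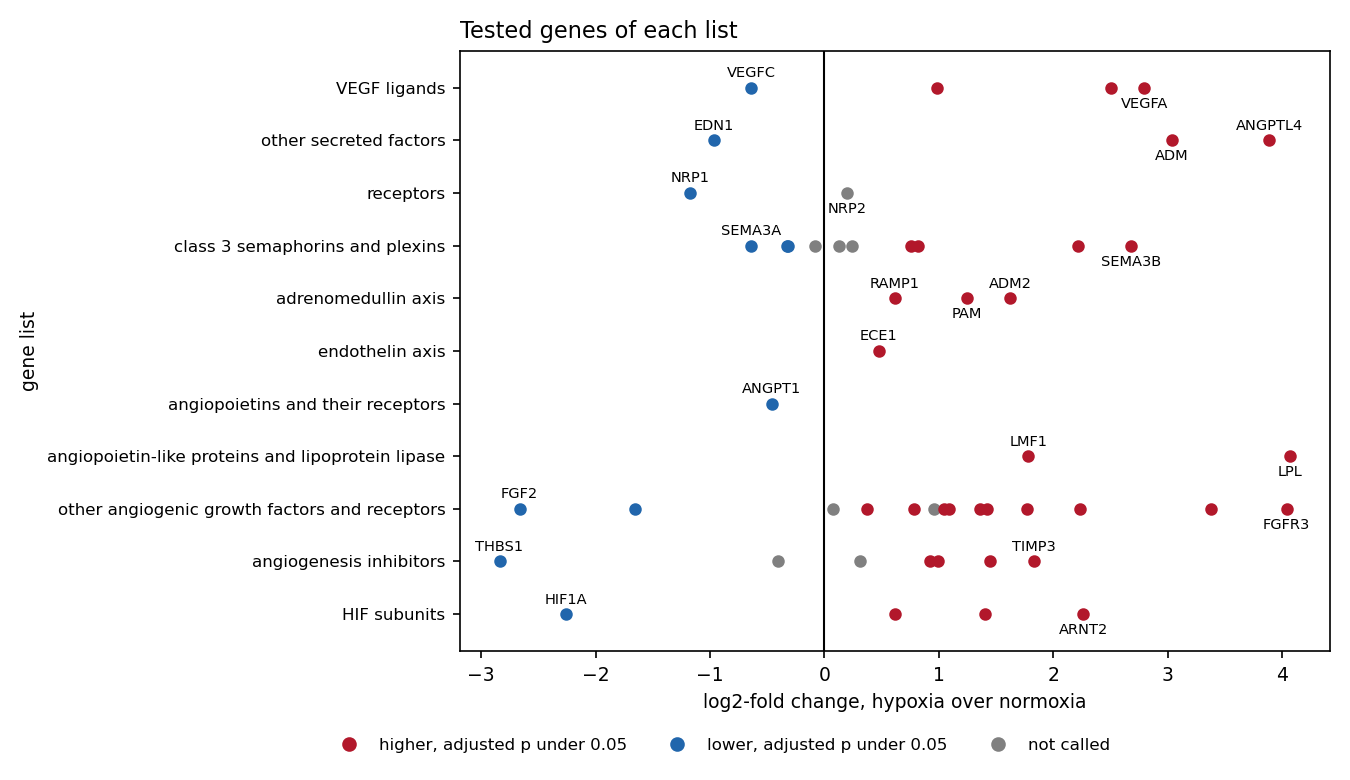
Log2-fold change (hypoxia over normoxia) of each tested gene by list, with the 9 tested angiogenic ligands and receptors in the top 3 rows, colored by the edgeR call at an adjusted p under 0.05. All 3 tested genes of the adrenomedullin axis lie right of 0, the lists of growth factors, inhibitors, HIF subunits and semaphorins hold called genes on both sides, and the point of LPL rests on 3 or fewer counts in each normoxia library.

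Class 3 semaphorins and plexins, the other partners of the neuropilins, had 4 of 10 tested genes higher, 3 lower and 3 not called, close to the 39.2% higher and 38.5% lower over all genes tested. SEMA3B and SEMA3F, both secreted guidance cues, were higher, SEMA3F at 19.3 ± 1.54 against 4.15 ± 1.01 CPM (SD, n = 3; log2-fold change 2.21, adjusted p = 2.24e-10 in edgeR). SEMA3B had a log2-fold change of 2.68 (SE 0.20, adjusted p = 1.46e-09 in edgeR). SEMA3A, the classical NRP1 ligand, was lower, at 46.1 ± 3.25 against 71.8 ± 3.52 CPM (SD, n = 3; log2-fold change -0.64, adjusted p = 7.86e-08 in edgeR). Among the plexins, which transmit the semaphorin signal, PLXNA3 and PLXND1 were higher with log2-fold changes of 0.82 and 0.75. PLXNA2 was lower with a log2-fold change of -0.33 and SEMA3C with -0.32, and on log2(FPKM + 1) with limma PLXNA2 had an adjusted p of 0.0518.

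In the adrenomedullin axis 3 of 3 tested genes were higher, against 39.2% of all genes tested. PAM, the enzyme that amidates and so activates adrenomedullin, had 336 ± 11.6 CPM under hypoxia and 142 ± 14.2 CPM in normoxia (SD, n = 3; log2-fold change 1.24, SE 0.065, adjusted p = 1.40e-11 in edgeR). RAMP1, an accessory subunit of the receptor CALCRL, had a log2-fold change of 0.62 (adjusted p = 1.36e-06 in edgeR), and ADM2, a related peptide, had 1.63 at about 1 CPM. CALCRL itself had 3, 2 and 7 raw counts under hypoxia and 0, 2 and 0 in normoxia and was not tested. RAMP2 and RAMP3, the other accessory subunits in this list, were not analysed here. The higher RAMP1 therefore does not describe a complete adrenomedullin receptor.

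In the endothelin axis 1 of 7 genes was tested. ECE1, the protease that releases mature endothelin, was higher at 307 ± 10.8 against 221 ± 8.76 CPM (SD, n = 3; log2-fold change 0.47, adjusted p = 2.47e-07 in edgeR), opposite in direction to EDN1. The endothelin receptors EDNRA and EDNRB held at most 2 raw counts in any library. ANGPT1, an agonist of the receptor TEK and the only tested gene of 5 in its list, was lower with a log2-fold change of -0.46 (adjusted p = 0.00551 in edgeR).

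In the list of angiopoietin-like proteins and lipoprotein lipase, both of the 2 genes tested besides ANGPTL4 were higher, against 39.2% of all genes tested. LPL, the enzyme that ANGPTL4 inhibits, had 26, 15 and 17 raw counts under hypoxia and 2, 1 and 0 in normoxia. With 3 counts per normoxia library taken as the floor, LPL was at least 6.20-fold higher. LMF1, a maturation factor of lipases, had 4.66 against 1.36 CPM (log2-fold change 1.78, adjusted p = 1.38e-06 in edgeR).

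Of 14 tested genes among other angiogenic growth factors and receptors, 10 were higher, 2 were lower and 2 were not called, where 39.2% of all genes tested were higher and 38.5% lower. Both lower genes were abundant in normoxia. FGF2, a fibroblast growth factor that stimulates endothelium, had 27.7 ± 3.47 CPM under hypoxia and 175 ± 13.9 CPM in normoxia (SD, n = 3; log2-fold change -2.66, SE 0.081, adjusted p = 3.08e-14 in edgeR). CXCL8, the chemokine interleukin-8, had 73.4 ± 4.13 against 231 ± 11.6 CPM (log2-fold change -1.66, adjusted p = 1.69e-13 in edgeR). Among the higher genes were FGFBP1, which releases FGF2 from the matrix (log2-fold change 2.23, adjusted p = 7.65e-10 in edgeR), the apelin gene APLN (1.77, adjusted p = 2.41e-08) and the midkine gene MDK (1.36, adjusted p = 5.86e-11).

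Of 7 tested genes in the list of angiogenesis inhibitors 4 were higher, 1 was lower and 2 were not called, against the same 39.2% and 38.5%. THBS1, thrombospondin-1, was the most abundant of them in normoxia and had 299 ± 52.8 CPM under hypoxia against 2141 ± 302 CPM in normoxia (SD, n = 3; log2-fold change -2.84, SE 0.11, adjusted p = 3.72e-13 in edgeR). TIMP3, a metalloproteinase inhibitor that also blocks VEGF binding to KDR, was higher at 80.7 ± 6.38 against 22.8 ± 2.66 CPM (log2-fold change 1.83, adjusted p = 2.55e-12 in edgeR). COL18A1, the parent of endostatin, was higher with a log2-fold change of 0.99 (adjusted p = 2.71e-07 in edgeR). The other 2 higher genes, SERPINF1 and VASH1, were at about 1 CPM or below, and VASH1 lost its call when hypoxia replicate 1 was left out (log2-fold change 0.60, adjusted p = 0.217 in edgeR). VASH1 also lost it without each normoxia replicate in turn, with no filter on low counts (adjusted p = 0.0537) and with the replicate number as a block (adjusted p = 0.0528). In these settings its log2-fold change stayed at 0.87 to 0.94, against 0.92 in the main fit. SERPINF1 lost its call without normoxia replicate 1 (log2-fold change 1.19 against 1.45, adjusted p = 0.0536 in edgeR). The list also counts VASH2 (log2-fold change 0.31, not called), whose role as an inhibitor was not examined.

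Of the HIF subunits, EPAS1 (HIF-2 alpha) was higher at 276 ± 12.9 against 105 ± 9.84 CPM (SD, n = 3; log2-fold change 1.40, adjusted p = 3.49e-12 in edgeR). ARNT, the shared beta subunit, had a log2-fold change of 0.61 (adjusted p = 6.61e-08 in edgeR), and its relative ARNT2 had 2.26. HIF1A mRNA was lower at 67.0 ± 10.4 against 320 ± 14.7 CPM (log2-fold change -2.26, SE 0.083, adjusted p = 2.08e-13 in edgeR). HIF proteins were not measured here.

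Likeness to VEGFA and ANGPTL4 was measured as the root mean square difference of centered log2 CPM over the 6 libraries, across 11574 genes, as a description with no test. Nearest to VEGFA were SNX33 (0.062), EFNA1 (0.075) and YPEL5 (0.080). Nearest to ANGPTL4 were MXI1 (0.19), SEC31B (0.20) and ANKRD37 (0.21). The 6 points share their libraries and fall into the 2 conditions, so any gene with a like fold change lies near.

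Neighboring genes on the chromosome, in RefSeq order among genes of the count table, were called higher in 7, lower in 2 and not called in 4 of 13 cases tested, or 69.2% called, against 77.8% of all genes tested. MRPS18A, the neighbor of VEGFA, had a log2-fold change of -0.028 (adjusted p = 0.671 in edgeR). HIVEP1, beside EDN1, had -0.097 (adjusted p = 0.368 in edgeR). KANK3, beside ANGPTL4, had 0.92 (adjusted p = 0.0862 in edgeR), and INO80D, beside NRP2, had 0.070 (adjusted p = 0.456). PARD3, beside NRP1, was higher with 0.76, as were ITGB1-DT on its other side (1.01), PARD3B beside NRP2 (1.16) and PAN3 beside FLT1 (0.46), whereas SPCS3, beside VEGFC, was lower with -0.62 and DNAJC4, beside VEGFB, was higher with 1.66. CAND1.11, beside ADM, had 30, 29 and 55 raw counts under hypoxia and 0, 0 and 6 in normoxia and was called higher (adjusted p = 5.78e-05 in edgeR), with no fold given because 2 normoxia libraries were at 0. DLST, beside PGF, was lower with -0.40. RAB11B-AS1, an antisense gene beside ANGPTL4, was higher with 0.96 (adjusted p = 0.000184 in edgeR). Its exons overlap those of ANGPTL4 by 1 base in GENCODE v29. Exons on the opposite strand also overlap VEGFA (AL136131.3, 188 of 14431 exonic bases), NRP1 (AL121748.2, 561 of 11522) and NRP2 (AC007362.1, 147 of 13896). Since no source states whether strand was counted, reads in these shared bases cannot be told apart.

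The labelled cell type was compared with its markers, and each count of markers called stands against 39.2% higher and 38.5% lower over all genes tested. Of 10 squamous epithelial markers 9 were tested, of which 4 were higher, 4 lower and 1 not called. Their summed level was 2436, 2583 and 2512 CPM under hypoxia and 1773, 1774 and 1917 CPM in normoxia. By FPKM LAMB3 was the most abundant under hypoxia (326 FPKM) and EPCAM in normoxia (202 FPKM). The lower markers were KRT6A (log2-fold change -4.12), SFN (-0.80), EPCAM (-0.35) and KRT5 (-0.18), and the higher ones LAMB3 (0.71), CDH1 (1.35), KRT17 (1.06) and DSG3 (1.35). KRT14, a defining basal keratin, had 1 raw count in 1 normoxia library and 0 in the other libraries. Of 11 endothelial markers 8 were in the table and 3 were tested, 2 of them higher, and their summed level was 5.83, 4.68 and 6.04 CPM under hypoxia and 3.22, 2.80 and 4.33 CPM in normoxia, with ESAM the most abundant. The endothelial markers PECAM1 and VWF had 5, 9 and 10 and 10, 9 and 4 raw counts under hypoxia, against 2, 0 and 0 and 0, 0 and 0 in normoxia. ROBO4, the tested marker that was not called, had 0.612 CPM under hypoxia and 0.741 CPM in normoxia (log2-fold change -0.30). TIE1 had 0, 0 and 1 raw counts under hypoxia and 1, 0 and 1 in normoxia.

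Of 9 fibroblast and pericyte markers 4 were tested, 3 of them higher, with a summed level of 51.8, 47.7 and 45.4 CPM under hypoxia and 21.5, 21.5 and 22.7 CPM in normoxia, ACTA2 being the most abundant. In this list COL1A1 had 18.0 CPM under hypoxia and 3.76 CPM in normoxia (log2-fold change 2.26). Of 7 leukocyte markers 2 were tested, 1 of them higher, summed to 33.9, 37.8 and 39.9 CPM under hypoxia and 33.7, 33.1 and 35.9 CPM in normoxia, with CD68 the most abundant by FPKM, and PTPRC had 2 raw counts in 1 hypoxia library and 0 elsewhere. CD68, not called, had 31.0 CPM under hypoxia and 33.1 CPM in normoxia. The higher marker, CD14, had 5.83 CPM under hypoxia and 1.07 CPM in normoxia (log2-fold change 2.45). The part of these markers in the differences of the angiogenic genes was not tested. In bulk RNA a change in the number of cells expressing a gene and a change of RNA per cell cannot be told apart.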

How the data were processed

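RNA-seq was measured in 6 libraries of SCC25 cells, 3 per condition, prepared with a SMARTer mRNA kit per the labels. The authors deposited a table of whole-number read counts and a table of FPKM, each per gene and library. The columns of the count table name HNSCC and those of the FPKM table SCC25. FPKM were normalized by the authors to length and library size. The aligner, counter, annotation and strand setting are not given in the sources used here. The submitters' processing notes name the mouse builds GRCm38 and mm10, whereas the count table holds human symbols and Entrez numbers, so no gene coordinate is taken from it. The labels name SCC25, and a legend of the study names SCC9.

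Counts were fitted over all genes with edgeR 4.0.16 (R 4.3.3): TMM scaling, filterByExpr, quasi-likelihood F test, condition as the only term, Benjamini-Hochberg adjustment over 14255 genes, threshold 0.05. DESeq2 1.42.0 and limma 3.58.1 on log2(FPKM + 1) were alternatives. The fit was tested on simulated data. Levels of different genes were compared by FPKM, with ratios and shares from undivided counts as an alternative, and ratios and shares were tested by exact permutation. Marker lists were summed in CPM. Floors cover counting error only. In each list up to 3 called genes per direction with the largest changes and a mean log2 CPM of at least 1 were named, together with the receptors, and others named besides were chosen after their values were seen. Some results that this rule covers are not reported here. Members and lists were chosen with earlier results of these data known. No sign of pairing by replicate number was seen: same-number deviations correlated at 0.0047, -0.19 and -0.052, and different-number ones at -0.12 to 0.17. Such weak values cannot show that the libraries were unpaired. Promoters came from RefSeq, GRCh38.p14, and 21062 of 21776 Entrez numbers matched RefSeq genes.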

Additional observations from a re-analysis of the deposited data

How the results depend on the processing

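Over 14 alternatives (other scaling, filter, tool, pseudocount, replicate block, and each library left out) no log2-fold change of a tested ligand or receptor reversed, and 8 of the 9 kept their side of the threshold. VEGFA ranged from 2.72 to 2.87, ANGPTL4 from 3.49 to 3.96, and EDN1 from -1.14 to -0.74. NRP2 ranged from 0.13 to 0.27 with adjusted p from 0.0142 to 0.227, and passed the threshold also with at least 10 counts in every library (0.27, adjusted p = 0.0149), where the scaling moved all shared genes by a median of 0.077. When calls also had to exceed 1 in log2-fold size, 4338 genes passed instead of 11090, 4 of the angiogenic genes instead of 5 were higher and 1 (NRP1) instead of 3 lower, and 18 pathway genes instead of 27 were higher and 4 instead of 8 lower. From summed counts without division by length the share of VEGFA differed by 31.9 percentage points instead of 37.6, VEGFB by -3.90 instead of -5.10, VEGFC by -28.9 instead of -35.0 and PGF by 0.857 instead of 2.49. With a replicate block 10874 genes were called, and with each library left out in turn 10669 to 11390. The block left 5 of the angiogenic genes higher and 3 lower, and 26 pathway genes higher, with VASH1 lost, and 8 lower. At this depth FLT1 and KDR were too low to test, and 3 libraries per condition limit exact tests to p = 0.1.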

Other observations

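The deposited annotation also lists Gene Ontology terms, which were read after the values above were seen. Of 178 tested genes annotated to angiogenesis 96 (53.9%) were higher and 54 (30.3%) lower, against 39.2% and 38.5% of all genes tested, with a median log2-fold change of 0.31. Of the 218 genes of this term in the count table, 32 are in the lists above, including 5 of the 10 angiogenic genes. For positive regulation these are 22 of 124, including 8 of the 10, so the sets overlap with results already given. For positive regulation of angiogenesis 41 of 96 were higher and 39 lower (median 0.073), and for negative regulation 26 of 50 were higher and 17 lower (median 0.27). Among genes outside the lists above, MMP2, a gelatinase, had a log2-fold change of 2.71, and the ephrins EFNA1 and EFNA3 had 2.69 and 2.53, whereas EPHA2, a receptor for ephrins, was lower with -0.96. EREG, the EGF receptor ligand epiregulin, had 95.5 CPM under hypoxia and 563 CPM in normoxia (log2-fold change -2.56, SE 0.068, adjusted p = 7.79e-15 in edgeR), and IL1B, the cytokine interleukin-1 beta, was lower with -1.18.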
